A study of Mus musculus with 4 samples.

Results

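Respiratory chain and ATP synthase genes were followed through the clusters of group 2 innate lymphoid cells (ILC2s) and of the other cells sorted with them. Genes were taken by symbol, as those that began with Nduf followed by a, b, c, s or v, with Cox followed by 4 to 8, with Uqcr, or with Atp5. The pattern matched 63 of the 3488 genes in a pair of deposited cluster marker tables, 62 of 2629 in a table of ILC2 subclusters and 10 of 1679 in a table of cell types, with 9 genes in both. RefSeq holds 92 protein-coding mouse genes with such symbols, and 29 of them were in neither table.

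The study asked how ILC2s of the liver and lung respond to IL-33, an alarm cytokine that activates these cells. Wild type BALB/c mice, 8 weeks old, received daily intraperitoneal PBS or rIL-33, the recombinant protein, at 0.5 µg for 5 days, and the 4 groups (PBS liver, PBS lung, rIL-33 liver and rIL-33 lung) had 1 library each, made from the pooled tissue of several mice. Cells were sorted as positive for CD127, Thy1 and ST2, the IL-33 receptor, and negative for CD3e, TCRb, CD45R, CD11b, Ly6G, Ly6c and TER119, and were sequenced from the 3' end of transcripts in droplets. The tables were made from all 4 libraries together and gave no value per library, so neither organ nor treatment could be compared, and no result below has a replicate check, a number of cells or a known depth.

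The respiratory chain passes electrons from NADH and succinate to oxygen in the inner mitochondrial membrane and pumps protons as it does so. Complex I (NADH dehydrogenase) takes electrons from NADH, complex III (cytochrome bc1) hands them from ubiquinol to cytochrome c, complex IV (cytochrome c oxidase) gives them to oxygen, and ATP synthase makes ATP as protons flow back. All but a few core subunits are encoded in the nucleus, and lymphocytes that grow and divide are known to enlarge their mitochondria.

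A listing here means that a table held a row for a gene in a cluster, which the authors' marker search wrote for genes higher in that cluster than in all other cells. Beside each listing stood what percentage of the cluster's cells, and of the cells outside it, had any value above 0, and these shares are what is reported. Cells had been clustered on expression, so a cluster against the rest is a description and carries no test. Cluster sizes, given in percent of cells, were solved from the shares of genes listed for several clusters. The marker genes matched the labels in part. Of the 12 ILC2 core genes in the cell type table, 10 were listed for the type named ILC2, solved at 43.2% of cells. Of the 14 T cell genes there, 10 were listed for gdT_TypeI, solved at 11.7% of cells, in a sort that was gated against CD3e and TCRb. Among these 10, *Trac* (64.8% inside and 71.9% outside) and *Trbc1* (79.0% and 88.3%) had a lower share inside. *Cd3e* was above 0 in 97.4% inside and also in 81.6% outside. The type gdT_Naive listed 10 as well.

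Most of the members were listed for the same ILC2 subcluster, though other ILC2s held them too. Subcluster 4, solved at 9.23% of ILC2s, listed 49 of the 62 members, or 79.0%, where it listed 30.5% of all genes in the table. Over those 49 members the median share of cells was 97.5% inside and 78.2% outside. No other subcluster listed more than 8. The next was subcluster 6 with 8 members, against 7.23% of all genes. Subclusters 1 and 9 listed 6 members each, against 13.8% and 7.57% of all genes. Subcluster 0 listed 5 (11.4% of all genes), subcluster 2 listed 3 (4.98%), subclusters 5 and 7 listed 2 each (38.0% and 10.3%), subcluster 8 listed 1 (9.62%) and subcluster 3 listed none (9.01%). The members stood well above the background share in subcluster 4 and above it in subcluster 6 (12.9% of members). In subclusters 9 (9.68%) and 2 (4.84%) they were near it, and in the others below it.

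**Figure D1:**
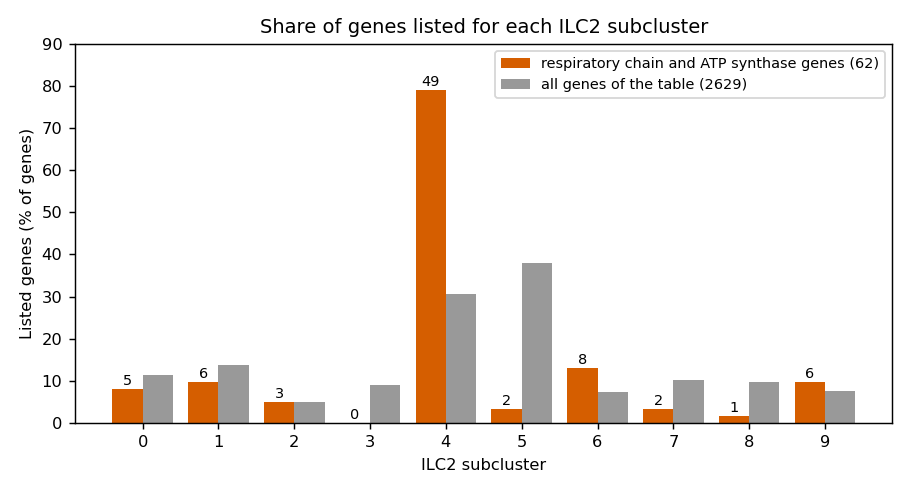
Percentage of genes listed for each of the 10 ILC2 subclusters (x axis), for the respiratory chain and ATP synthase genes (orange, number of genes above each bar) and for all genes of the table (grey). Subcluster 4 listed 79.0% of the members against 30.5% of all genes.

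Subcluster 4 also listed the most genes of cell division. Other subclusters listed *Top2a* (6 and 8, the latter at 49.4% against 30.2%) and *Hmgb2* (1, 2 and 6). All 11 proliferation genes in the table were listed for subcluster 4, among them *Mki67*, *Top2a*, *Stmn1*, which regulates microtubules, and *Mcm5*, a part of the replicative helicase. *Stmn1* was above 0 in 77.2% of its cells and in 9.8% of other ILC2s, and *Mki67* in 54.7% and 15.0%. Of 12 ILC2 core genes only *Il13* was listed for it (62.1% and 34.4%), and of 8 T cell genes only *Lck* (40.3% and 14.9%). All 802 of its listings had a higher share of cells inside than outside. A share of cells rises with the number of molecules read per cell, which the tables do not give, and the part of depth or of dividing cells in the listing of the members was not tested.

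By complex, and of the genes that any subcluster listed, subcluster 4 listed 20 of 24 complex I subunits, 0 of 3 complex I assembly factors, 5 of 7 complex III subunits, 9 of 12 complex IV subunits and 15 of 16 ATP synthase subunits. RefSeq holds 39 complex I subunit genes of this pattern, 8 assembly factors, 8 of complex III, 20 of complex IV and 17 of ATP synthase, so the listed genes were 20 of 39 in complex I and 15 of 17 in ATP synthase, and genes in neither table may not have passed the filters. All 4 complexes were represented. With 3 assembly factors in the table and 30.5% of all genes listed, the count of 0 shows little.

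Complex I members had the widest gaps between subcluster 4 and the other ILC2s. *Ndufb6*, an accessory subunit of the membrane arm, was above 0 in 87.3% of cells inside and 49.5% outside. *Ndufb2*, also of the membrane arm, was above 0 in 87.6% and 51.3%, and *Ndufa9*, which holds NADPH near the quinone site, in 72.4% and 36.1%. These were the 3 largest differences in the complex, from 37.8 to 36.3 percentage points. Of the core subunits that carry the electrons, *Ndufv1*, which binds NADH, was above 0 in 80.5% inside and 45.5% outside, and *Ndufv2*, an iron-sulphur protein, in 93.8% and 68.6%. *Ndufs1*, another core subunit, was not listed for subcluster 4. Over the 20 subunits the share inside ran from 72.4% to 98.6% and the share outside from 36.1% to 81.8%.

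Complex III followed. *Uqcrc2*, a core protein, was above 0 in 91.9% of subcluster 4 and 61.5% of other ILC2s, *Uqcrq* in 98.5% and 73.0%, and *Uqcrb* in 95.7% and 70.8%. *Uqcrq* and *Uqcrb* encode small subunits, as do *Uqcr11* (95.5% and 74.5%) and *Uqcr10* (97.5% and 79.5%). The complex III genes not listed for subcluster 4 were *Uqcrfs1*, the Rieske iron-sulphur protein that passes electrons on, and *Uqcrh*, the hinge protein near cytochrome c1.

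The complex IV and ATP synthase genes listed for subcluster 4 were found in most of the other ILC2s as a whole, which left less room for a gap. *Ndufa4*, once assigned to complex I and now to complex IV, was above 0 in 99.0% of subcluster 4 and 78.2% of other ILC2s. *Cox7b* (98.9% and 84.6%) and *Cox6a1* (98.1% and 84.7%) came next, and *Cox8a* had the narrowest gap of all members, with 99.9% and 95.7%. Among ATP synthase genes, *Atp5k*, which encodes subunit e in the membrane part, had the widest gap, 95.4% and 68.0%. It was followed by *Atp5md*, a small membrane subunit (95.9% and 74.6%), and *Atp5g1* (98.8% and 78.5%). The catalytic head was found in nearly all cells inside, with *Atp5a1* at 99.2% and 88.1% and *Atp5b* at 99.9% and 92.8%.

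*Atp5g1*, *Atp5g2* and *Atp5g3* encode the same mature c subunit, the ring that turns in the membrane, with different import sequences. All 3 were listed for subcluster 4, and they differed in the other ILC2s, where *Atp5g1* was above 0 in 78.5% of cells, *Atp5g3* in 83.1% and *Atp5g2* in 92.5%. Inside subcluster 4 the shares lay together at 98.8%, 98.8% and 99.5%. *Atp5g2* was the only c-ring gene listed elsewhere, for subcluster 2 (98.5% and 91.9%) and subcluster 6 (99.4% and 92.9%).

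**Figure D2:**
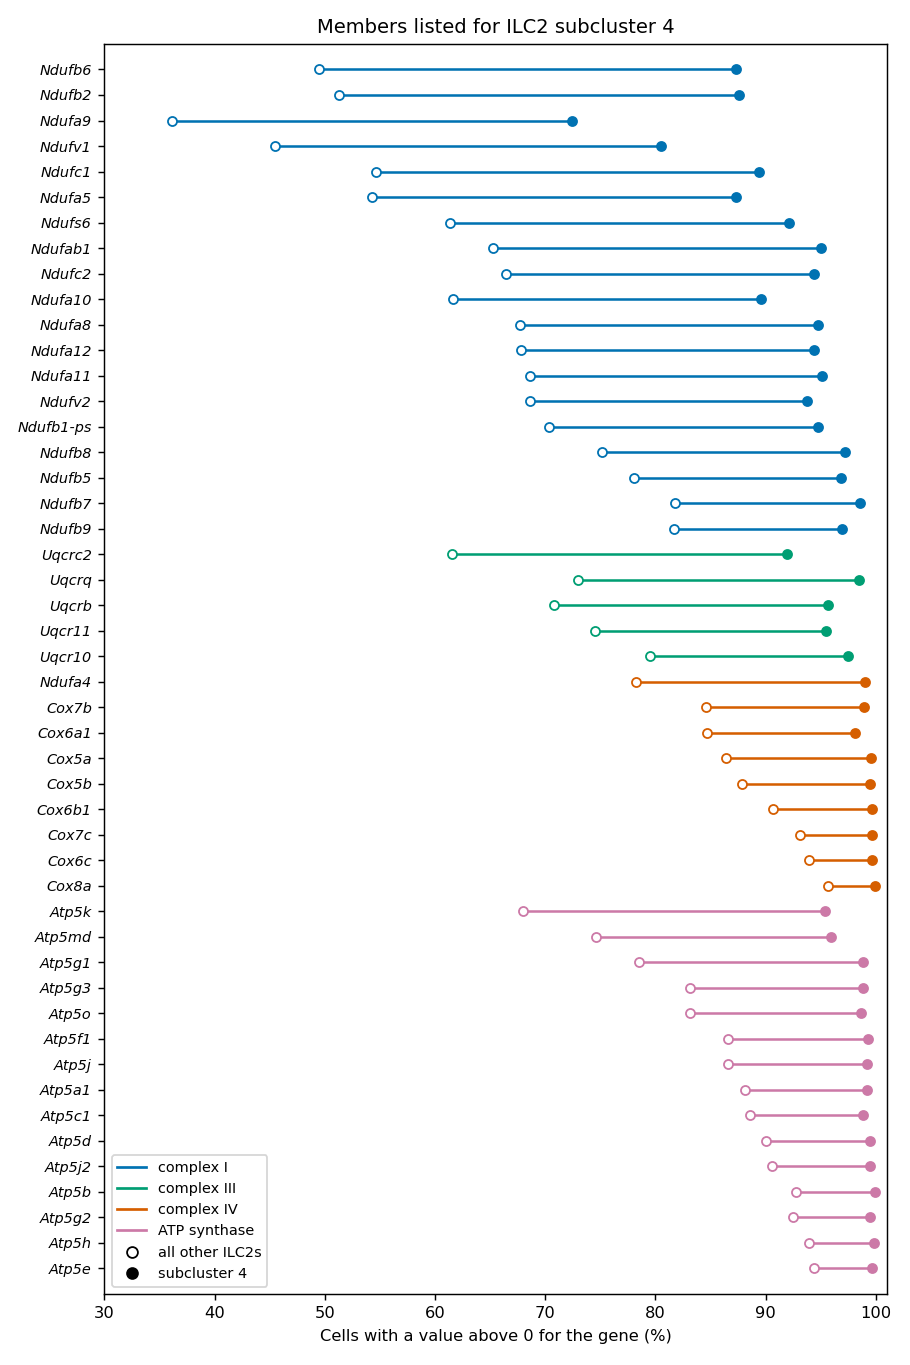
Percentage of cells above 0 (x axis) for 48 of the 49 members listed for ILC2 subcluster 4, in the subcluster (filled circles) and in all other ILC2s (open circles), by complex and by the size of the gap. Gaps ran from 4.2 percentage points for *Cox8a* to 37.8 for *Ndufb6*.

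Because shares near 100% cannot move far, each pair of shares was also turned into a ratio of −ln(1 − share), which equals a ratio of mean molecules per cell if molecules fall on cells at random. The ratio for subcluster 4 against other ILC2s had a median of 2.63 for complex I (20 genes), 2.56 for complex III (5), 2.41 for complex IV (9) and 2.33 for ATP synthase (15). On this scale the complexes lay close together, with all 49 members between 2.02 for *Atp5e* and 3.21 for *Uqcrq*. The shares are rounded, which lets *Atp5e* lie anywhere from 1.96 to 2.09 and *Atp5c1* from 2.01 to 2.06, so the lowest member is not settled. Over the 795 listed genes for which the ratio could be computed it had a median of 3.03 and ran from 1.61 to 48.0. The members sat in the lower part of that range, and the 11 proliferation genes had a median of 5.64. Genes had to be higher in the subcluster to be listed, so these medians describe the listed genes and support nothing on their own.

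**Figure D3:**
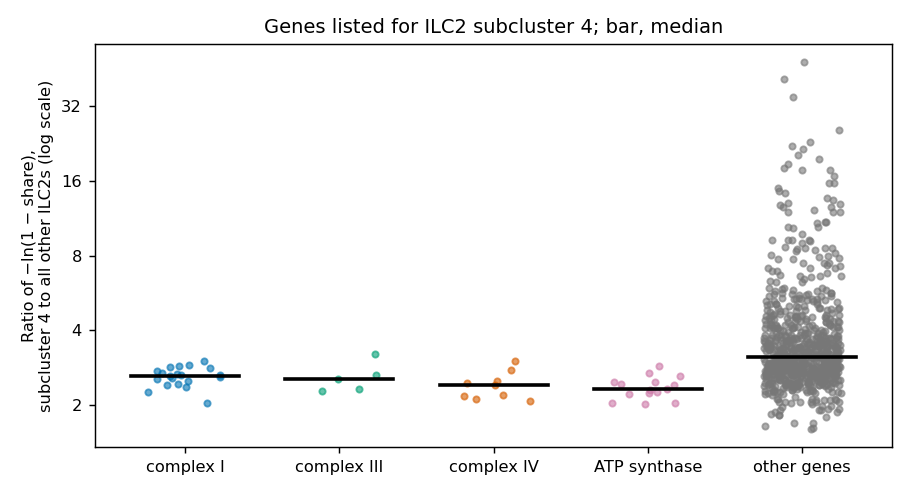
Ratio of −ln(1 − share) in ILC2 subcluster 4 to that in all other ILC2s (y axis, log scale), 1 point a listed gene, by complex and for the 746 other listed genes, with bars at the medians. The members spanned 2.02 to 3.21, a narrow band within the 1.61 to 48.0 of all listed genes.

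Of the 49 members, 38 were listed for subcluster 4 alone and 11 for another subcluster as well. Over all subclusters, 22.6% of the 62 members and 29.2% of all genes of the table were listed for at least 2, so listing for a single subcluster was common among all genes. The 13 members not listed for it were *Ndufa6*, *Ndufb4*, *Ndufs1*, *Ndufv3*, *Ndufaf3*, *Ndufaf4*, *Ndufaf8*, *Uqcrfs1*, *Uqcrh*, *Cox4i1*, *Cox7a2*, *Cox7a2l* and *Atp5l*. A missing listing does not show that a gene was alike inside and outside, since a gene can miss the authors' filters in other ways.

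Promoters of the members were read for the letters of 4 transcription factors known to act on nuclear genes of mitochondria. The windows were those of RefSeq for GRCm38.p6, which shares the coordinates of mm10, from 250 bases before to 50 bases after each start, and 53 of the 62 members matched a window by symbol. The letters searched on both strands were GCGCANGCG for NRF1, CCGGAAG for ETS factors such as GABP, AAGATGGCG for YY1 and AAGGTCA for ERR factors. A window could count for more than 1 motif, and matches of a palindromic stretch on both strands can overlap.

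NRF1 letters were in the windows of 28.6% of the 42 members with a window that were listed for subcluster 4. They were in 36.4% of the 11 members not listed for it, in 22.4% of all genes listed for it, in 16.9% of all genes of the table and in 7.03% of 27025 genes. ETS letters were in 26.2%, 27.3%, 27.3%, 21.0% and 9.93% of the same sets. The first 3 values are close to each other, so the ETS letters were about as common in members as in other genes listed for the subcluster. YY1 letters were in 11.9%, 9.09%, 4.15%, 3.81% and 1.64%, and ERR letters in 9.52%, 18.2%, 5.33%, 4.52% and 5.38%. Members listed and not listed for subcluster 4 held the motifs at shares that rest on few genes, 4 of 11 and 12 of 42 for NRF1.

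The sites printed are those of the 3 members listed for subcluster 4 with the widest gaps for each motif, to show what a match looks like and where it lies. Capitals mark the matched letters, in the direction of the gene. The NRF1 matches of *Ndufa5* (chr6:24527698-24527726, minus strand), *Ndufs6* (chr13:73328479-73328507, minus strand) and *Atp5k* (chr5:108434431-108434458, minus strand) all lie before the start:
Ndufa5: tgtgtgagctGCGCAGGCGcaaatctacc
Ndufs6: gactgctgtgCGCCTGCGCcggcacttgg
Atp5k: ttcactgcgGCGCATGCGCctttctggc

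The ETS matches of *Ndufb6* (chr4:40279637-40279663, minus strand), *Atp5k* (chr5:108434371-108434397, minus strand) and *Atp5md* (chr19:47090629-47090655, minus strand) all read on the strand opposite to the gene, with the same letters:
Ndufb6: cgtccttgttCTTCCGGtcccctcccc
Atp5k: ctcagttgagCTTCCGGcgcgaaggtc
Atp5md: gagggggcgtCTTCCGGtcgggccgag

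The YY1 matches of *Ndufa9* (chr6:126849097-126849125, minus strand), *Ndufc1* (chr3:51408915-51408943, minus strand) and *Ndufs6* (chr13:73328433-73328459, minus strand) lie after the start. The YY1 letters reached past the start in 5 of the 6 member windows that held them and in 59.4% of the 461 windows that held them in all genes:
Ndufa9: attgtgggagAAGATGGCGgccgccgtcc
Ndufc1: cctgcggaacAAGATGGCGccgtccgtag
Ndufs6: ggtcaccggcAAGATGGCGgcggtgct

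The ERR matches of *Ndufb2* (chr6:39592374-39592400, plus strand), *Atp5k* (chr5:108434360-108434386, minus strand) and *Atp5g3* (chr2:73911362-73911388, minus strand) lie before the start in *Ndufb2* and *Atp5g3* and after it in *Atp5k*:
Ndufb2: gagcagcagtAAGGTCAgccaagagca
Atp5k: ttccggcgcgAAGGTCAcggacaaaat
Atp5g3: tgttacaaagTGACCTTgagcgtcttc

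*Atp5k*, the ATP synthase gene with the widest gap, held the letters of NRF1, ETS and ERR in its window, and *Ndufs6* those of NRF1 and YY1. A match is a description of the letters and not a bound site, and binding was not analysed here.

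Outside subcluster 4 there were 33 listings of 24 genes, and in 27 of them the share inside was above the share outside. *Cox5a* and *Uqcrq* were listed for most subclusters, 4 each.

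*Cox5a*, a subunit of complex IV, was listed for subclusters 1 (97.9% inside and 85.0% outside), 2 (97.2% and 85.5%), 4 (99.6% and 86.4%) and 6 (98.8% and 87.2%). These subclusters were solved together at 51.3% of ILC2s, and the gene was above 0 in 98.0% of their cells and in 76.7% of the remaining ILC2s. *Cox4i1*, the common isoform of subunit 4, was listed for subclusters 1 (99.7% and 95.4%), 2 (99.8% and 95.5%) and 6 (100% and 96.2%) and had the highest share in all ILC2s of any member, 96.3%. The same 3 subclusters and subcluster 8 listed 2, 3, 2 and 4 of the 12 ILC2 core genes. *Klrg1*, an inhibitory receptor, was common to these lists and was above 0 in 92.1%, 85.6%, 91.9% and 85.4% of their cells. *Gata3*, *Il1rl1*, *Il2ra* and *Icos* were listed for none of them. Subcluster 4, which listed *Cox5a* as well, did not list *Klrg1*.

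Subcluster 1, solved at 20.1% of ILC2s, listed *Uqcrfs1* (83.1% and 65.3%), *Ndufa4* (93.1% and 76.8%), *Ndufa6*, an accessory subunit of complex I (92.3% and 82.3%), and *Cox7a2l* (98.3% and 89.8%), which links complexes III and IV, besides *Cox5a* and *Cox4i1*. It listed genes of complexes I, III and IV and none of ATP synthase. Subcluster 2, solved at 18.3%, listed *Cox5a*, *Cox4i1* and *Atp5g2* only. Subcluster 3, solved at 14.9%, listed none, while 7 of the 12 ILC2 core genes were listed for it.

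Subcluster 6, solved at 3.72%, listed genes of all 4 complexes. Complex I was represented by *Ndufb1-ps*, an accessory subunit despite its symbol (90.1% and 71.9%), and *Ndufv3*, a small subunit of the NADH module (92.8% and 77.8%). Complex III was represented by *Uqcrq* (92.1% and 74.8%), complex IV by *Cox5a* and *Cox4i1*, and ATP synthase by *Atp5c1*, the central stalk (98.8% and 89.2%), *Atp5e*, its epsilon subunit (99.4% and 94.7%), and *Atp5g2*. All 8 members had a higher share inside. Of the proliferation genes, *Hmgb2* and *Top2a* were listed for this subcluster, the latter at 49.0% against 29.6%, and 4 of 8 T cell genes were as well. The part of these in the listing of the members was not tested.

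*Uqcrq* was listed for subclusters 4, 6, 7 (96.5% and 75.1%) and 9 (87.7% and 75.3%). These held 15.0% of ILC2s, and the gene was above 0 in 96.3% of their cells and 71.7% of the remaining ones. Its 4 listing subclusters were smaller than those of *Cox5a*, and subclusters 4 and 6 were common to both genes.

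Subcluster 9, solved at 0.611% of ILC2s, listed *Uqcrq* and 5 further members, and its values rest on few cells. In complex III, *Uqcrh* was above 0 in 100% of cells inside and 95.2% outside and *Uqcr10* in 95.1% and 81.1%. ATP synthase was represented by *Atp5l*, its subunit g (97.5% and 93.2%), the only ATP synthase member not listed for subcluster 4. *Ndufaf3*, an assembly factor of complex I, was above 0 in 38.3% and 27.7%.

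Subclusters 7 and 8, solved at 1.42% and 0.668%, listed few members. Subcluster 7 listed *Uqcrq* and *Cox7a2*, a subunit of complex IV (98.5% and 89.2%). It also listed 5 of the 12 ILC2 core genes, among them *Il13* at 60.5% against 36.6% and *Areg* at 62.0% against 39.2%. Of these only *Id2* had a lower share inside (97.0% and 97.4%). From the other lists it had 3 of 8 T cell genes and the signalling adaptors *Tyrobp* and *Fcer1g* of the myeloid list, at 26.5% against 3.2% and 32.0% against 5.2%. Subcluster 8 listed *Uqcrfs1* (91.0% and 68.8%), which subcluster 1 listed as well. Over both, *Uqcrfs1* was above 0 in 83.4% of the listing cells and 65.1% of the remaining ILC2s.

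In subclusters 0 and 5 the members were found in fewer cells inside than outside, with a single exception, although their rows stood in a list of higher genes. A gene can have a higher average in the cells that hold it and be found in fewer of them. Subcluster 0, the largest at 27.3% of ILC2s, listed *Ndufb4* (58.8% inside and 63.5% outside), *Ndufaf8*, an assembly factor (38.6% and 43.0%), *Ndufa5* (56.0% and 57.8%) and *Uqcr11* (75.5% and 76.8%), with *Cox7a2* the exception (90.2% and 89.0%). All 5 gaps were under 5 percentage points. Of all 300 listings of subcluster 0, 63.3% had a higher share inside, unlike those of these 4 members. *Ndufb4* has 2 copies in RefSeq, *Ndufb4b* and *Ndufb4c*, and reads of such copies may not be told apart.

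Subcluster 5, solved at 3.87%, listed *Ndufs1*, the largest iron-sulphur subunit of complex I, at 8.6% inside and 28.6% outside, and *Ndufaf4*, an assembly factor, at 12.7% and 26.8%. In these genes the gap ran the other way from that in subcluster 4. The same held for most of what the subcluster listed, since 978 of its 1000 listings had a lower share of cells inside. It listed 5 of 8 T cell genes, of which 4 had a higher share inside, such as *Cd3e* with 32.0% against 4.7%, and *Trbc1* a lower one, with 45.0% against 81.0%. The part of lower depth or of T cells in these values was not tested.

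**Figure D4:**
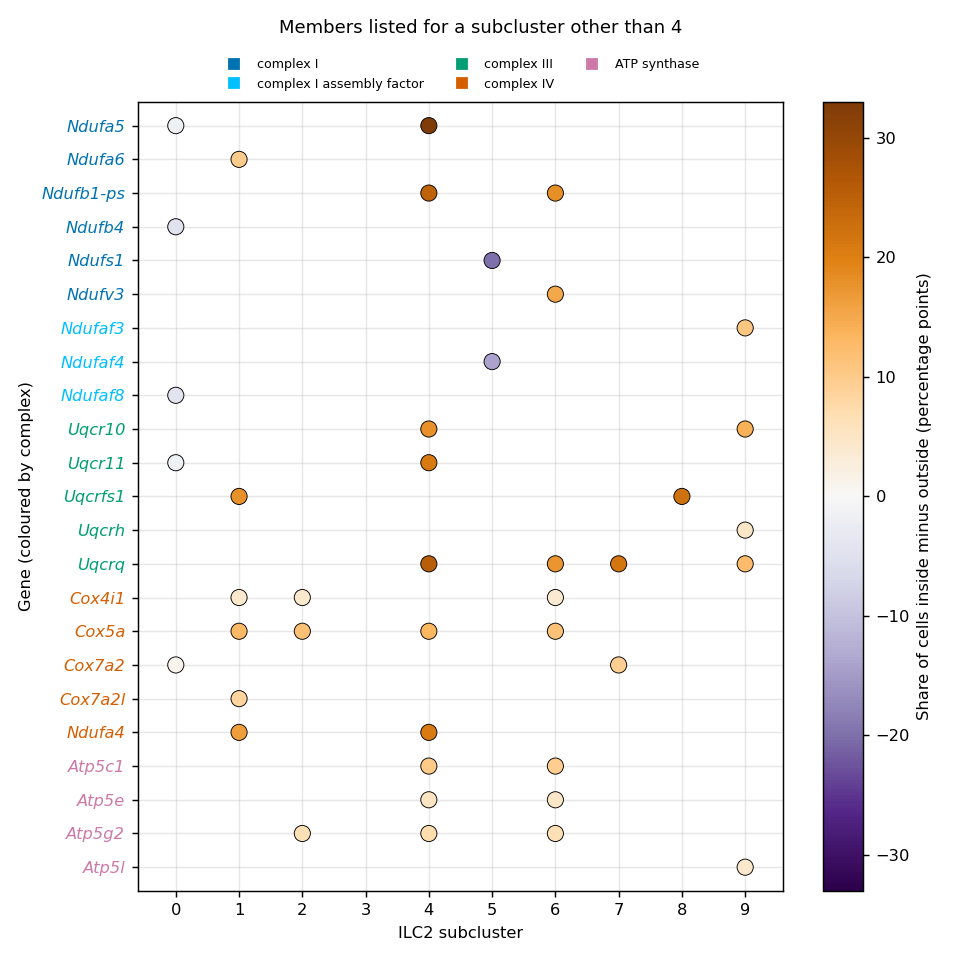
Members listed for a subcluster other than 4 (23 of 24, y axis, coloured by complex) in the 10 ILC2 subclusters (x axis), each listing a dot coloured by the share of cells inside minus that outside, in percentage points. Purple dots, where the share was lower inside, are in subclusters 0 and 5, and *Cox5a* and *Uqcrq* have 4 dots each.

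Among the genes listed, the share of cells was highest in complex IV and ATP synthase. The share in all ILC2s, solved from the shares and the cluster sizes, had a median of 68.5% over the 24 complex I genes, 75.4% over 7 of complex III, 90.4% over 12 of complex IV and 89.3% over 16 of ATP synthase. The 3 assembly factors were at 26.3% (*Ndufaf4*), 27.8% (*Ndufaf3*) and 41.8% (*Ndufaf8*). Complex I genes spread most widely, from 27.8% for *Ndufs1* to 84.3% for *Ndufa6*, and complex IV genes least of the 4 complexes, from 80.1% for *Ndufa4* to 96.3% for *Cox4i1*. The medians leave out the 15 complex I, 5 assembly factor, 1 complex III, 7 complex IV and 1 ATP synthase genes of RefSeq that were in neither table, and they cover genes that passed the marker filter, mostly through subcluster 4. These are shares of cells and not levels, and genes of a complex with higher shares had less room to differ between subclusters.

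Of the complex IV genes with tissue-type copies, *Cox4i1*, *Cox6a1*, *Cox6b1*, *Cox7a2* and *Cox8a*, the common copies, were in the subcluster table, while *Cox4i2*, *Cox6b2*, *Cox7a1* and *Cox8b*, known from lung, testis or muscle, were in neither table. *Cox7a2l* was listed for subcluster 1 alone. *Cox6a2*, the heart and muscle copy of subunit 6a, was in the cell type table alone.

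The cell type table held 10 members in 31 listings, and 13 of 21 cell types listed at least 1 of them. The table appears to rest on 2000 features rather than all genes, so a member that is missing from it may not have been tested, and its shares are not on the scale of the subcluster table. The type spelled Prolifelation cell there, solved at 6.23% of cells, listed 8 of the 10 members, against 30.6% of all genes, and all 15 proliferation genes. All 8 were also listed for ILC2 subcluster 4. The cells of both may be partly the same, so this is not independent support.

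Prolifelation cell had its widest gap for *Ndufab1*, the mitochondrial acyl carrier protein, which also serves complex I, at 96.1% of cells inside and 70.3% outside. The complex III genes *Uqcrq* (98.8% and 80.5%) and *Uqcr10* (99.0% and 82.6%) came next. In complex IV, *Cox5a* was above 0 in 99.6% and 86.9% and *Ndufa4* in 99.8% and 90.6%. The ATP synthase genes were *Atp5g3* (99.4% and 83.4%), *Atp5g1* (98.4% and 85.7%) and *Atp5b* (99.8% and 94.5%). Each of the 4 complexes was represented, as in subcluster 4.

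The type named MMP_LMPP, solved at 0.387% of cells, listed 5 of 10 members against 24.0% of all genes. They were *Uqcr11* (97.6% and 78.8%), *Uqcr10* (99.2% and 83.6%), *Cox5a* (99.2% and 87.7%), *Ndufa4* (100% and 91.1%) and *Atp5b* (100% and 94.8%). Of the proliferation genes this type listed *Stmn1* alone, at 91.9% against 43.5%. It listed *Myc*, a growth regulator, at 82.9% against 45.9%. It also listed genes of other cell types, 3 of the 7 B cell genes (*Cd79a* at 76.4% against 27.8%, *Cd79b* and *Ighm*) and 2 of the 7 myeloid genes (*Itgam* and *Tyrobp*), and their part in the result was not tested.

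ILC3 listed 4 members against 9.11% of all genes, with narrow gaps: *Uqcrq* at 87.4% and 81.5%, *Cox5a* at 93.0% and 87.6%, *Ndufa4* at 96.2% and 91.1%, and *Uqcr10* at 85.5% and 83.6%. This type also listed 5 of the 12 ILC2 core genes and 7 of the 14 T cell genes, such as *Cd3g* at 97.1% against 85.3%. Of these T cell genes only *Cd3d* had a lower share inside (81.9% and 83.6%). Their part in the result was not tested. The type named ILC2 listed *Uqcr11* alone (85.4% and 73.9%), against 8.10% of all genes. With MMP_LMPP it held 43.6% of cells, in which *Uqcr11* was above 0 in 85.5%, against 73.7% of the remaining cells. ILC2_2, the other type with that name, listed none of the members (11.9% of all genes).

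*Ndufa4* was the member listed for most cell types, 10 of 21. Besides the types above, it was listed for Endothelium cell (98.8% and 91.1%), ILC1_ILC3 (98.9% and 91.1%), ILC1 (95.4% and 90.9%), NK (96.1% and 91.0%), gdT_TypeIII_CD163l1 (97.5% and 91.1%) and gdT_TypeIII_ITGAE (96.9% and 91.1%). The tenth was CD8_Effector, where its share was lower inside, at 88.7% and 91.2%. The gene was above 0 in 91.2% of all cells, and its widest gap was 9.2 percentage points, in Prolifelation cell.

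Endothelium cell and ILC1_ILC3 listed *Ndufab1* as well, at 94.4% against 71.7% and 92.3% against 71.8%. These types listed 23.6% and 13.4% of all genes. Of the proliferation genes Endothelium cell listed *Stmn1* alone, at 92.8% against 43.3%, and it also listed *Trf*, at 86.5% against 32.5%. Their part in the result was not tested. gdT_TypeIII_CD163l1 listed *Cox5a* besides *Ndufa4*, at 96.1% and 87.6%. CD8_Naive listed *Uqcr10* (84.9% and 83.6%) and *Uqcrq*, with nearly equal shares of 81.2% inside and 81.6% outside. The background was 11.8% of all genes for CD8_Naive, 5.60% for CD8_Effector, 8.64% for ILC1, 11.7% for NK, 11.4% for gdT_TypeIII_CD163l1 and 11.7% for gdT_TypeIII_ITGAE.

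Macrophage listed a single member, *Cox6a2*, against 17.3% of all genes. It was above 0 in 88.5% of those cells and in 24.3% of all others, the widest gap of any member in that table, and no other type listed it. Macrophage was solved at 4.59% of cells and listed 4 of the 7 myeloid genes in the table, of which *Tyrobp* and *Fcer1g* were also listed for other types. It listed genes of other cell types too, with *Ighm* at 96.6% against 63.7%, *Cd4* at 78.4% against 53.3%, and also *Cd79b* and *Trf*. Their part in the result was not tested. The sort was gated against CD11b, and a share in this table may not be a share of cells with a detected molecule.

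No member was listed for Basophil (16.4% of all genes), CD4 (7.80%), Plasma cell (12.2%), Treg (8.93%), gdT_Naive (8.87%), gdT_TypeI (8.64%) or gdT_TypeII (1.67%). With 10 members in the table, few would be listed at such shares, and their absence shows little.

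**Figure D5:**
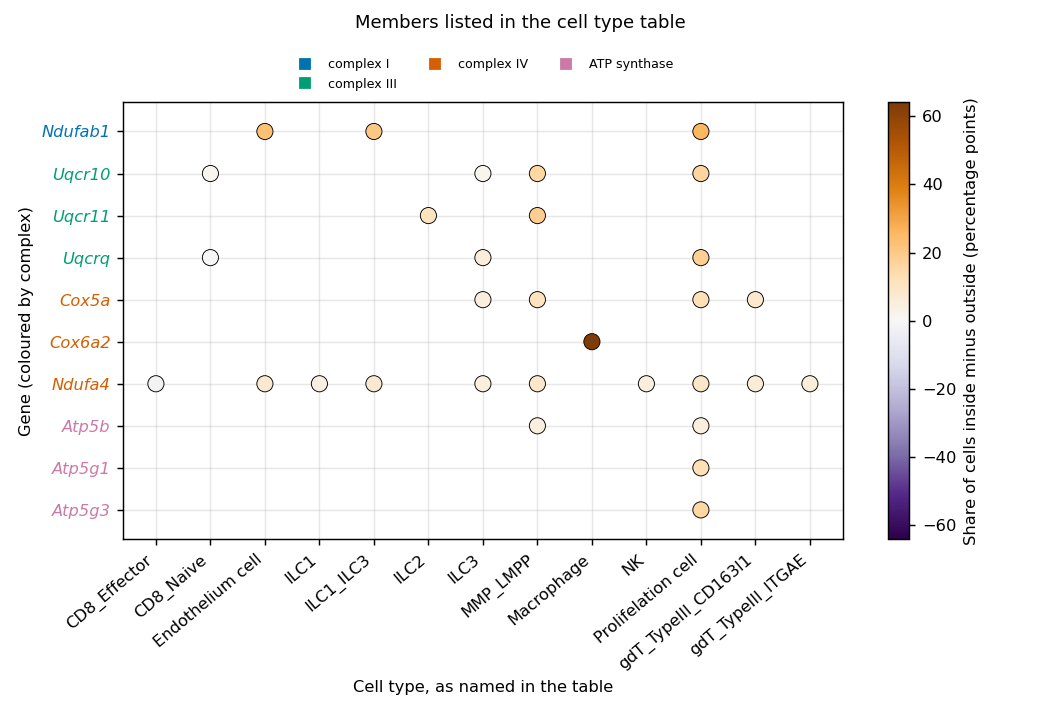
The 10 members of the cell type table (y axis, coloured by complex) in the 13 cell types that listed at least 1 (x axis, names as in the table), each listing a dot coloured by the share of cells inside minus that outside, in percentage points. *Ndufa4* has 10 dots, Prolifelation cell has 8, and *Cox6a2* in Macrophage is the widest gap at 64.2 points.

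Genes that work beside the complexes were described from lists of known roles, whose counts for subcluster 4 stand beside the 30.5% of all genes that it listed. The 13 subunits encoded in mitochondrial DNA were in neither table. Of complex II (succinate dehydrogenase), *Sdhb* (93.1% and 63.4%) and *Sdhd* (86.3% and 53.8%) were in the subcluster table and listed for subcluster 4 only. The electron carrier cytochrome c, *Cycs*, was listed for subclusters 4 (89.0% and 52.5%) and 7 (89.0% and 55.4%), and *Cyc1*, cytochrome c1 of complex III, for subcluster 4 (90.4% and 54.7%). Their gaps in subcluster 4, from 29.7 to 36.5 percentage points, lay within the range of complex I.

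The carriers that bring ADP and phosphate in and take ATP out were all listed for subcluster 4, 6 of 6 in the table. *Slc25a4*, an ADP/ATP exchanger, and *Slc25a3*, the phosphate carrier, were listed for 4 subclusters each, and *Slc25a5*, another exchanger, and *Vdac1*, an outer membrane pore, for 2 each. *Slc25a4* was above 0 in 94.2% of subcluster 4 and 78.8% of other ILC2s, and in 92.9% and 77.0% for subcluster 1. All 11 import genes in the table were listed for subcluster 4 and for no other, with *Timm8a1*, a chaperone of the intermembrane space, at 62.7% and 16.4%. Of 13 regulators of mitochondrial biogenesis, *Tfam*, which packs and copies mitochondrial DNA, was alone in the table (64.7% and 27.0% in subcluster 4).

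Assembly and inhibitor proteins were divided among subclusters. Of 11 in the table, 5 were listed for subcluster 4, not far from its share of all genes. *Atpif1*, the inhibitor of ATP synthase, was listed for 4 subclusters, at 86.6% against 67.3% in subcluster 2, 91.3% against 68.7% in subcluster 4, 90.7% against 70.1% in subcluster 6 and 86.4% against 70.7% in subcluster 9. *Romo1* and *Higd2a*, small inner membrane proteins, were listed for 2 each, and so was *Cox14*, which helps to assemble complex IV.

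Of 5 tricarboxylic acid cycle genes in the table, 4 were listed for subcluster 4, with *Fh1*, fumarase, at 70.5% and 30.4% and *Mdh2*, malate dehydrogenase, at 96.6% and 75.3%. *Idh3a*, a subunit of isocitrate dehydrogenase, was listed for subcluster 1 as well (54.0% and 40.6%). *Dlst*, of the oxoglutarate dehydrogenase complex, was listed for subcluster 5 alone, at 11.9% and 30.2%, with the direction of *Ndufs1* there.

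Glycolysis genes were spread over 6 subclusters, with 7 of 10 listed for subcluster 4, 4 each for subclusters 2 and 6, 3 for subcluster 7, 2 for subcluster 1 and 1 for subcluster 5. In that order the subclusters listed 30.5%, 4.98%, 7.23%, 10.3%, 13.8% and 38.0% of all genes. The gene of subcluster 5, *Pfkp*, had a lower share inside, at 14.7% against 42.9%. *Gapdh* and *Pgk1*, which act in the middle of the pathway, were listed for 4 subclusters each, and *Gpi1* and *Pkm* for 3 each. *Pgk1* was above 0 in 96.2% of subcluster 4 and 65.7% of other ILC2s. In the median of the ratio for subcluster 4, glycolysis stood at 2.86, the tricarboxylic acid cycle at 2.80, import at 2.81, the carriers at 2.54, cytochrome c and c1 at 2.96, complex II at 2.62 and the members at 2.49. These medians were all under the 3.03 of all genes listed for the subcluster, while *Tfam*, the only biogenesis regulator in the table, stood above it at 3.31.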

How the data were processed

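The data were single-cell 3' expression of sorted cells from 4 libraries, 1 a group, grouped from the labels. Per the methods, the authors relied on the cell sort to take out doublets, and no doublet caller could be run here on tables that hold no cells. Per the submitters' processing notes and the methods, the authors aligned reads with Cell Ranger to mm10, scaled and log transformed the counts, clustered cells in Seurat and found markers with FindAllMarkers. Some genes were kept out of the clustering by the authors, and which ones is not given in the sources used here. The deposited fraction columns hold, to 3 decimals, how much of a cluster and how much of the remaining cells was above 0. The deposited log2 fold changes and p-values are the authors' own comparison of each cluster with all other cells, and were used only to describe the filter. The smallest log2 fold change in the authors' tables was 0.25, the largest raw p-value 0.0095 (cell types) and 0.0096 (subclusters). The Bonferroni factor, adjusted over raw p-value, gave the features the authors tested, 2000 and 14354. The tables held 0 further columns of values per sample.

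Members were found by the symbol pattern and assigned to complexes by known roles. Members and gene lists were chosen with earlier results of these data known. Cluster sizes were solved by least squares from genes listed for at least 2 clusters, since the share outside plus the size times the difference of shares is the same for every cluster that lists a gene. The solver was tested on simulated data. Sizes gave the share in all cells and in clusters that did not list a gene. A listing as deposited was the call, with no test, because cells are not replicates. Alternatives were a higher share inside, a gap of at least 5 percentage points, a ratio of at least 1.25, assembly factors left out, subcluster 4 or 5 left out, sizes from genes listed for at least 3 clusters, and sizes without the members. Genes were named by a rule: the 3 widest gaps per complex in subclusters 4 and 6, members listed for most clusters, members of clusters listing 5 or fewer, members with a lower share inside, all members of the cell type table, c-ring genes and tissue-type copies, and the 3 genes of each other list named by most clusters. Further genes were named to describe a complex or a subcluster after their values were seen. RefSeq promoter windows of GRCm38.p6 (300 bases) were matched by symbol or synonym. Protein sequences were not used here, and 1 member, kept in the counts, is not reported here by name. Scripts ran in Python 3.11.15 with pandas 2.3.3, NumPy 2.4.6 and matplotlib 3.10.9.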

Additional observations from a re-analysis of the deposited data

How the results depend on the processing

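No paired analysis was possible because the groups had 1 library each and the tables held no value per library, and for the same reason no library could be left out. With subcluster 4 left out, the member listings in the subcluster table fell to 33 from 82. The other counts over both tables and the 49 of subcluster 4 stayed within 1.5 times of their values under every alternative run: 76 and 68 listings of the subcluster table had a higher share inside and a gap of at least 5 percentage points, and 48 of the 49 members of subcluster 4 had such a gap. Counts of subclusters 0 and 5 did not stay. Of the 5 members of subcluster 0, 1 had a higher share inside and 0 a gap of 5 points or a ratio past the limit, and of the 2 members of subcluster 5, 0 met any of these and 1 was left without the assembly factors. Of 62 counts recomputed, 54 stayed the same within 1.5 times, and all 56 recomputed shares of the 14 members listed for several subclusters moved by at most 0.0153 percentage points with the sizes. The depth of the libraries, the number of cells and the values per library are not in the tables, and no counting error is given for the shares.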

Other observations

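A pair of gene families chosen after their values were seen showed the same subcluster. Of 30 mitochondrial ribosomal protein genes in the subcluster table, 27 were listed for subcluster 4, which listed 30.5% of all genes, with *Mrps28* above 0 in 75.8% of its cells and 30.3% of other ILC2s and *Mrpl12* in 90.4% and 49.4%. Of 29 genes of proteasome subunits, which degrade proteins, 26 were listed for it. The median ratio of −ln(1 − share) was 3.04 for the first family and 2.78 for the second, against 2.49 for the respiratory chain and ATP synthase genes. Genes of cytosolic ribosomal proteins had no row in either table and so no value.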
